A study of Mus musculus with 8 samples.

Results

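Acetyl-CoA supplies carbon for fatty acid and sterol synthesis and acetyl groups for proteins and histones. Transcripts of genes that carry acetate and other monocarboxylates across the plasma membrane, or that make, export or buffer acetyl-CoA, were followed in 4T1 cells. The 4T1 cells are an established mouse mammary carcinoma line that metastasises to the lung in mice. The genes were listed by name for their place in these routes: 10 were listed, and 9 of the 20189 genes of the expression table were read, namely Acss1, Acss2, Acly, Slc16a1, Slc16a6, Slc25a1, Crat, Mpc1 and Mpc2. The other listed gene, Slc16a3, which encodes a lactate exporter, is not analysed here. The 4T1 cells, of genotype WT, were cultured for 48 h with 5 mM acetate or with vehicle (H2O). Each group held 4 messenger RNA libraries, 8 in all, numbered 1 to 4 in both groups, and same-numbered libraries, which share a code in the labels, were compared as pairs.

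Acetate crosses the plasma membrane through monocarboxylate transporters of the SLC16 family and is joined to coenzyme A by acyl-CoA synthetases, ACSS1 in mitochondria and ACSS2 in the cytosol and nucleus. In most cells the larger route starts from glucose: the mitochondrial pyruvate carrier, a complex of MPC1 and MPC2, brings in pyruvate, SLC25A1 exports the citrate made from it, and ATP citrate lyase (ACLY) cleaves that citrate to acetyl-CoA in the cytosol. Carnitine acetyltransferase (CRAT) moves acetyl groups between coenzyme A and carnitine. ACSS2 is known for its role in tumour cells that use acetate when glucose or oxygen is scarce.

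Of the 9 genes, 3 changed after 48 h with acetate. The Acss2 transcript rose, and those of Slc16a6 and Mpc2 fell. The called share was 3 of 9, with 1 higher and 2 lower. Over all genes tested, 8.64% passed an adjusted p of 0.05 (limma, replicate number as a block), 5.99% higher and 2.65% lower in acetate. On the recovered reads, edgeR called the same 3 genes in the same directions, beside 6.51% higher and 5.38% lower (11.9% in all) over all genes. DESeq2 called 2 of them, Slc16a6 and Mpc2 lower, beside 9.11% of the 12361 genes it gave an adjusted p (5.28% higher and 3.83% lower). With limma kept to genes with a mean above 10 units, 4 of these genes passed, beside 2263 of 13292 genes. The median log2 change of the 9 genes, with Acss1 and its few reads included, was 0.08, beside 0.02 over all genes. Acss2, Slc16a1 and Slc25a1 were higher in acetate in 4 of 4 pairs, and Slc16a6, Mpc1 and Mpc2 were lower in 4 of 4. Over all 20189 genes, 3365 were higher and 2309 lower in 4 of 4 pairs. In each of the 9 genes the ranges of the 4 acetate and the 4 vehicle libraries met, a count not made over all genes. Without the pairing 0 of the 9 genes passed in limma, at an unadjusted p of 0.05 as well. Over all 20189 genes, 0 then passed after adjustment and 353 unadjusted. P-values of the fits with the block measure the spread of the changes within pairs, in libraries of a single cell line.

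The promoters of Acss2, Mpc1 and Mpc2 are shown because Acss2 was the gene that rose and Mpc2 fell, and Mpc1, which did not pass, encodes its partner subunit. Each is the 250 bases before a RefSeq transcript start (GRCm38.p6), 5′ to 3′ on the gene's strand: Acss2 at chr2:155517793-155518042 (+), Mpc1 at chr17:8283537-8283786 (+) and Mpc2 at chr1:165461010-165461259 (+). Capitals mark matches, on either strand, to a GC box (GGGCGG or CCGCCC) or a CCAAT box (CCAAT or ATTGG).
Acss2: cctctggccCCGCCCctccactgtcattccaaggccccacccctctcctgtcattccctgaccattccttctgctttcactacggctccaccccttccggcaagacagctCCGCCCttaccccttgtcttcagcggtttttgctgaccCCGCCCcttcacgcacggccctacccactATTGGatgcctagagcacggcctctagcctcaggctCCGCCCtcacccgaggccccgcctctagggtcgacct
Mpc1: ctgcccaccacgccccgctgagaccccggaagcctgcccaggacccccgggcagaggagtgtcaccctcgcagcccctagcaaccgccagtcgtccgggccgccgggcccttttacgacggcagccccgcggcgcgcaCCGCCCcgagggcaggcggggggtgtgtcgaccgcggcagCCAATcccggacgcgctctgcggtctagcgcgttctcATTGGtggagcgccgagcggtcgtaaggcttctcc
Mpc2: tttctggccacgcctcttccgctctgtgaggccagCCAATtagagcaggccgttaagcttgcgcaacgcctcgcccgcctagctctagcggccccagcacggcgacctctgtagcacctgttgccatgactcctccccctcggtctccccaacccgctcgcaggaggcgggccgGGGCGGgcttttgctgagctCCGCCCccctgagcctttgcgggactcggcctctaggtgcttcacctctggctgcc

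The Acss2 window held 4 GC boxes and 1 CCAAT box, that of Mpc1 1 and 2, and that of Mpc2 2 and 1. A GC box was found in 32.7% and a CCAAT box in 33.8% of all 32851 windows of that length. The Acss2 window was 64.0% G or C, the Mpc1 window 73.6% and the Mpc2 window 67.2%, beside a median of 52.4% over all windows. The GENCODE span of Acss2 begins inside its window, and those of Mpc1 and Mpc2 begin upstream of theirs. RefSeq windows were found for 7 of the 9 genes, 8 in all because Mpc1 had 1 more start, at 8284204 to 8284453. An E-box (CACGTG) was found in 6.02% of all windows, and among these genes in those of Slc16a1 and Slc25a1. The sterol regulatory element sequence TCACNCCAC, held by 1.05% of all windows, was in 0 of the 8. These are letter matches and say nothing of binding.

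The libraries held 19.9 to 29.3 M reads (M, mega) over the genes of the table. Values are normalised reads, scaled to a library total of 20000000, so that 1 unit is close to 1 read. Calls over all genes were 1209 higher and 535 lower, and the balance depended on scaling, with 1000 higher and 821 lower after median-of-ratios scaling and 1314 higher and 1086 lower in edgeR. The carcinoma markers Epcam, Krt8, Krt18, Krt19 and Cdh1 summed to 42130 to 59632 units in vehicle and 44422 to 60637 in acetate, and among them Krt19 rose by 0.40 (log2, adjusted p = 2.54e-04, limma) and Cdh1 by 0.15 (adjusted p = 0.00592), while Krt8 had a log2 change of -0.06 and was lower in 4 of 4 pairs (adjusted p = 0.214). Of the fibroblast markers 4 of 5 were read, with sums of 233 to 1523 in vehicle and 396 to 1998 in acetate. Nearly all of this was Pdgfra, which rose by 0.52 ± 0.06 (log2, SE, adjusted p = 3.72e-04, limma), Pdgfrb rose as well by 1.40 ± 0.29 (adjusted p = 0.0119), and Dcn and Col1a2 stayed below 20 units in every library. Leukocyte markers (2 of 5 read) summed to 79.4 to 192 units in vehicle and 69.1 to 187 in acetate, with Ptprc below 20, and all 4 endothelial markers read were below 20. The part of these markers in the results was not tested, and in bulk RNA fewer cells of a type cannot be told from less RNA per cell.

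Monocarboxylate transport was represented by Slc16a1 and Slc16a6. Slc16a6, on chromosome 11 (109450855 to 109473598, minus strand, GRCm38), encodes MCT7, a monocarboxylate transporter known from ketone body export in liver. Its transcript fell. The vehicle libraries 1 to 4 held 542, 195, 223 and 109 normalised reads, and the acetate libraries held 389, 143, 143 and 81.2. Replicate 1 was far above the others in both groups, and the groups overlapped, but every acetate library was below its own vehicle. The log2 changes within the pairs were -0.48, -0.45, -0.64 and -0.42. The fitted log2 change was -0.50 ± 0.07 (SE, n = 4 pairs, 95% interval -0.65 to -0.34, limma adjusted p = 0.00182), so the level fell by 29.2%. The means were 267 ± 189 in vehicle and 189 ± 137 in acetate (SD, n = 4), and these SDs were larger than their difference.

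Slc16a6 shares 1052 bases of exon with Amz2, a gene on the opposite strand. Whether strand was used in counting is not stated, so some reads may be shared between them. Amz2 ran from 731 to 1157 normalised reads, with a log2 change of -0.07 (adjusted p = 0.345, limma).

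Slc16a1 (chromosome 3, 104638668 to 104658462, plus strand) encodes MCT1, the widely expressed importer and exporter of lactate, pyruvate and acetate. The vehicle libraries held 5926, 4467, 4431 and 4764 normalised reads and the acetate libraries 5971, 4720.3, 4703 and 5316. Acetate was the higher library in each pair, by 0.01, 0.08, 0.09 and 0.16 on the log2 scale. The groups overlapped, and the fitted log2 change of 0.08 ± 0.03 (95% interval 0.02 to 0.15, adjusted p = 0.107, limma) did not pass. The difference in log2 change between the transporters, Slc16a6 minus Slc16a1, was -0.58 ± 0.11 (SD, 4 pairs) and negative in 4 of 4 pairs. Its exact two-sided sign-flip permutation p of 0.125, 0.188 after adjustment over 3 such comparisons, is the smallest that 4 pairs can give. Per kb of principal transcript, Slc16a1 was at 10.4 to 41.6 times the level of Slc16a6 in vehicle and at 14.6 to 62.4 times in acetate. The ratio was higher in acetate in 4 of 4 pairs. Its upper ends came from replicate 4 alone, and the next highest were 21.8 in vehicle and 31.5 in acetate. With the length of all exons of each gene, the ratio was 12.1 to 48.1 in vehicle and 16.9 to 72.2 in acetate.

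**Figure D1:**
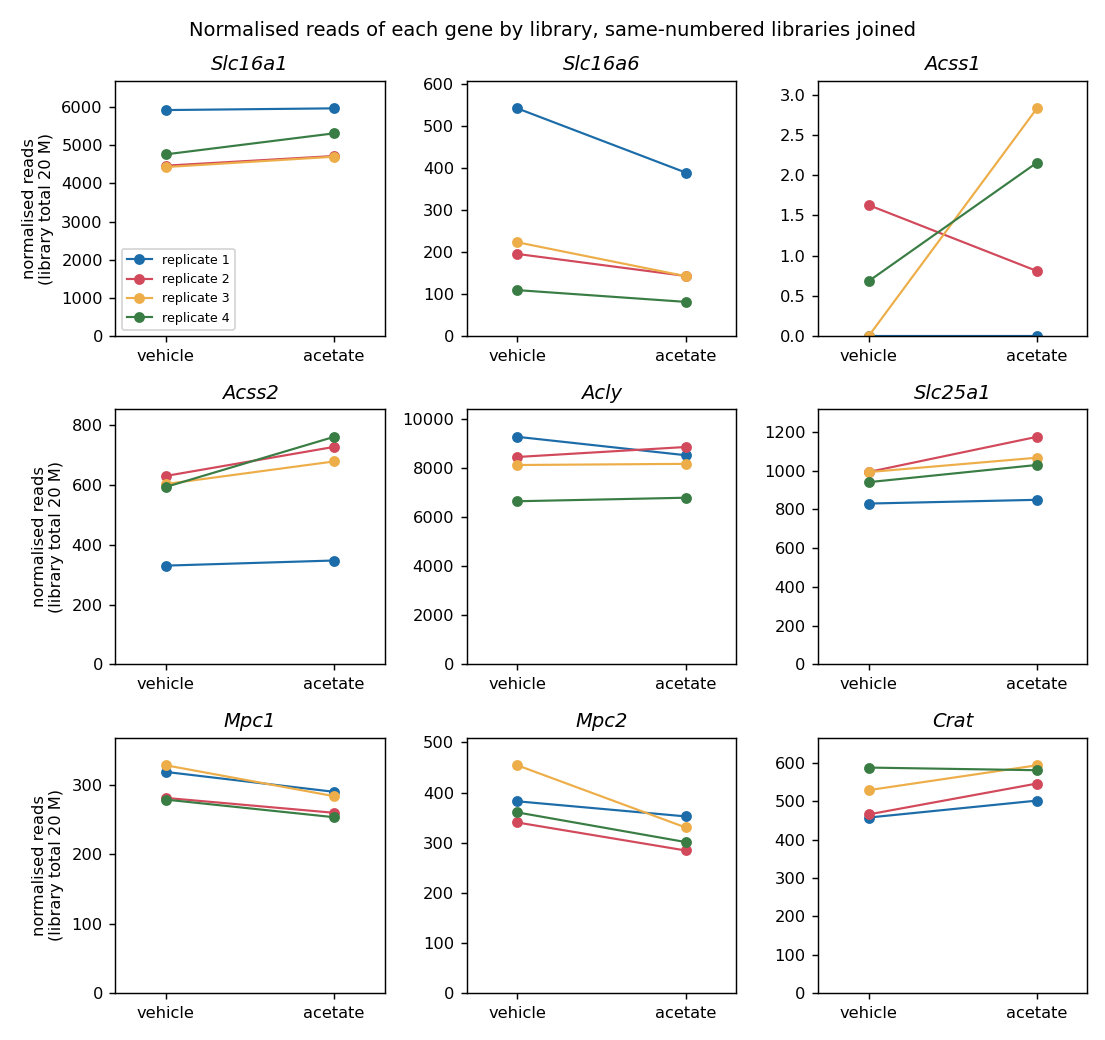
Normalised reads (library total 20000000, linear axes from 0) of the 9 genes in the vehicle and acetate libraries, with lines joining same-numbered libraries. The Slc16a6 lines all fall, from 109 to 542 in vehicle to 81.2 to 389 in acetate, the Acss2 and Mpc2 lines all rise and fall respectively, and the separation between replicate numbers is often wider than that between groups.

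Activation of free acetate is carried out by the ACSS enzymes. Acss2 (chromosome 2, 155517948 to 155585724, plus strand) rose. Its transcript stood at 329.8, 629, 602 and 592 normalised reads in vehicle and 347, 726, 678 and 759.7 in acetate. Replicate 1 was low in both groups, and the acetate library was the higher in each pair. The changes within the pairs were 0.07, 0.21, 0.17 and 0.36 (log2). The fitted log2 change was 0.20 ± 0.05 (95% interval 0.09 to 0.31, adjusted p = 0.0317, limma), a rise of 15.0%. The means, 538 ± 139.9 in vehicle and 628 ± 190.1 in acetate, lay closer than their SDs. The call was close to the threshold: it was lost in DESeq2 (adjusted p = 0.105) and without the pair of replicate 2, 3 or 4 (adjusted p = 0.138, 0.141 and 0.174, limma). Acss2 shares 395 bases of exon with Gss, which had a log2 change of 0.06 (adjusted p = 0.657, limma).

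Acss1 (chromosome 2, 150618105 to 150668500, minus strand), the mitochondrial acetate enzyme, was at the limit of detection. The vehicle libraries held 0, 2, 0 and 1 reads and the acetate libraries 0, 1, 3 and 3. No fold change is given for so few reads, and its adjusted p was 0.508 (limma).

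Citrate export and cleavage were represented by Slc25a1 and Acly. Acly (chromosome 11, 100476353 to 100528000, minus strand) was the most abundant of the 9 and did not pass the test. Its vehicle libraries held 9256, 8436, 8109.5 and 6636 normalised reads, and its acetate libraries 8508, 8842, 8157 and 6779. Acetate was the lower library in replicate 1 and the higher in the other 3. The log2 change was -0.00 ± 0.03, with a 95% interval for the mean change over pairs of -0.07 to 0.07 (adjusted p = 0.970, limma). It was 0.04 without replicate 1 (adjusted p = 0.515). Acss2 minus Acly, the difference between the acetate and citrate enzymes in log2 change, was 0.21 ± 0.08 (SD) and positive in 4 of 4 pairs (exact sign-flip permutation p = 0.125, adjusted 0.188). Per kb of principal transcript, Acly was at 7.68 to 19.2 times the level of Acss2 in vehicle and at 6.11 to 16.8 times in acetate. The ratio was lower in acetate in 4 of 4 pairs. Its upper ends came from replicate 1 alone, and the next highest were 9.23 in vehicle and 8.34 in acetate. With the length of all exons of each gene, the ratio was 21.6 to 54.0 in vehicle and 17.2 to 47.2 in acetate.

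Slc25a1 (chromosome 16, 17925223 to 17928219, minus strand), the mitochondrial citrate carrier, was at 831, 994, 993 and 941 normalised reads in vehicle. In acetate it was at 849.9, 1175, 1067 and 1029.9. Every acetate library exceeded its own vehicle, though the lowest acetate library, that of replicate 1, was below 3 of the 4 vehicle libraries. The log2 change of 0.13 ± 0.04 (95% interval 0.04 to 0.22, adjusted p = 0.0809, limma) did not pass. It passed when only genes with a mean above 10 units were tested (adjusted p = 0.0481) and without replicate 1 (adjusted p = 0.0440).

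Mpc2 (chromosome 1, 165460637 to 165481214, plus strand), a subunit of the mitochondrial pyruvate carrier, fell. The vehicle libraries held 382, 340.2, 454 and 360.3 normalised reads, and the acetate libraries 352, 284, 330.3 and 301. Each acetate library was below its own vehicle, and the acetate library of replicate 1 was the one that overlapped the vehicle range. The pair changes were -0.12, -0.26, -0.46 and -0.26 (log2), and the fitted change was -0.27 ± 0.06 (95% interval -0.41 to -0.14, adjusted p = 0.0181, limma). The mean went from 384 ± 49.8 to 317 ± 30.3 (SD, n = 4), and the level fell by 17.3%. The call was lost without the pair of replicate 2, 3 or 4 (adjusted p = 0.0859, 0.135 and 0.106, limma).

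Mpc1 (chromosome 17, 8282904 to 8297661, plus strand) encodes the partner subunit. It was at 319, 282, 329 and 279 normalised reads in vehicle and at 290.4, 260.1, 284 and 254 in acetate. All 4 pairs were lower in acetate, by -0.14, -0.11, -0.21 and -0.14 on the log2 scale, and the groups overlapped. The log2 change was -0.15 ± 0.06 (95% interval -0.27 to -0.03, adjusted p = 0.130, limma) and did not pass. Mpc2 minus Mpc1 was -0.12 ± 0.11 (SD, 3 of 4 pairs negative, exact sign-flip permutation p = 0.250, adjusted 0.250), a test in which 4 pairs can give no p below 0.125. The ratio of Mpc2 to Mpc1 per kb of principal transcript was 1.10 to 1.27 in vehicle and 1.00 to 1.11 in acetate. It was lower in acetate in 3 of 4 pairs. With the length of all exons of each gene, it was 0.340 to 0.392 in vehicle and 0.310 to 0.344 in acetate, so which subunit stood higher depended on the length used.

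Crat (chromosome 2, 30400471 to 30415813, minus strand) buffers acetyl-CoA as acetylcarnitine. The vehicle libraries held 457, 466, 529 and 588 normalised reads, and the acetate libraries 501, 546, 594 and 581. Acetate was higher in 3 of 4 pairs. The log2 change was 0.13 ± 0.05 (95% interval 0.02 to 0.24, adjusted p = 0.151, limma) and did not pass.

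**Figure D2:**
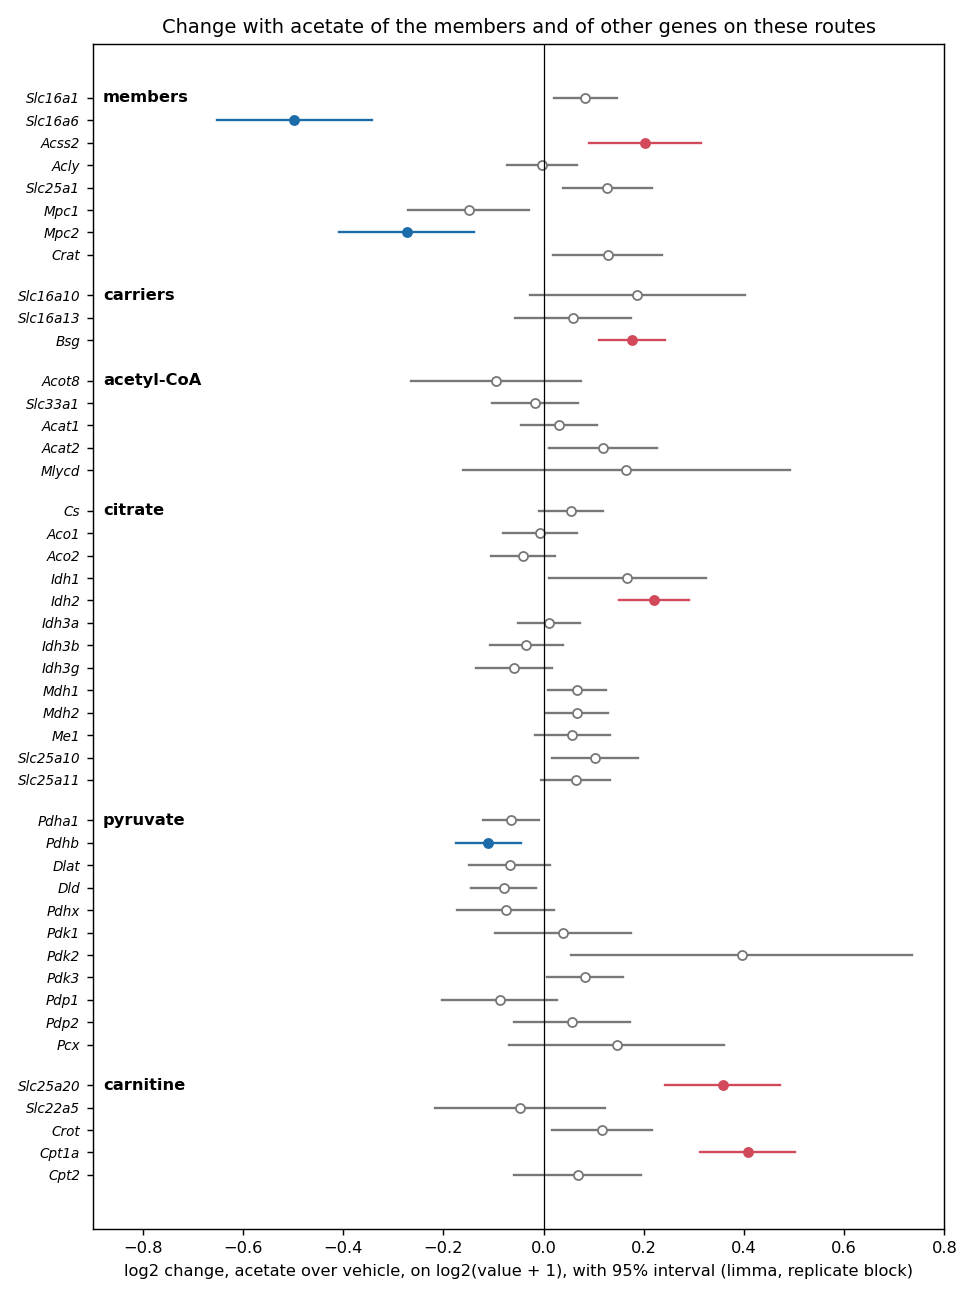
Log2 change, acetate minus vehicle, with 95% intervals from the paired limma fit, for 8 of the 9 genes (Acss1 left out for its few reads) and for 37 wider genes of the same routes with a mean above 20 units. Filled red points are called higher, filled blue points called lower and open grey points not called. Slc16a6 at -0.50 lies furthest below 0, and Cpt1a, at 0.41, lies furthest above 0.

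Around these genes, 53 others of the same routes were listed, of which 42 were read. Of these 4 rose, 1 fell and 37 did not pass, with a median log2 change of 0.06, so 5 of 42 were called, beside 8.64% of all genes (5.99% higher and 2.65% lower). With the test kept to genes with a mean above 10 units, 2263 of 13292 genes were called. Among carriers and their chaperones (8 read), Bsg rose. Bsg encodes basigin, the chaperone that takes MCT1 to the plasma membrane. It went from 9925 ± 1416 to 11266 ± 1993 (SD, log2 change 0.18 ± 0.03, adjusted p = 0.00460, limma). The call of Bsg was lost without replicate 2 or 4 (adjusted p = 0.0540 and 0.0570, limma). The acetate carrier gene Slc5a8 was near 0, with means of 3.16 and 1.90 units, and Acss3, a further acetate synthetase gene, is not analysed here.

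Among 13 genes read for enzymes and carriers of citrate, isocitrate and malate, in mitochondria or cytosol, Idh2 rose. The list does not cover the whole citrate cycle. Idh2 went from 2975 ± 448 to 3452 ± 365 normalised reads (log2 change 0.22 ± 0.03, adjusted p = 0.00195, limma). Idh2 encodes the mitochondrial NADP-dependent isocitrate dehydrogenase. The other 12 did not pass, and the list's median was 0.06. Of the 5 other acetyl-CoA genes read, 0 passed, with a median of 0.03. Both counts stand beside 8.64% of all genes called.

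Of 11 genes read for pyruvate dehydrogenase, its kinases and phosphatases, and pyruvate carboxylase, 1 was called, beside 8.64% of all genes. Pdhb, the beta subunit of the dehydrogenase's first enzyme, fell from 2184 ± 102 to 2023 ± 107 normalised reads (log2 change -0.11 ± 0.03, adjusted p = 0.0397, limma). The list's median was -0.07. In 4 of 4 pairs, 4 of the 11 were lower (Pdhb, Pdha1, Dld and the phosphatase gene Pdp1) and 2 were higher. Over all 20189 genes, 2309 were lower and 3365 higher in 4 of 4 pairs. Among the genes not called, the subunits Pdha1, Dlat, Dld and Pdhx had log2 changes of -0.07, -0.07, -0.08 and -0.08. Of these, Dlat and Pdhx were lower in 3 of 4 pairs. Pdp1 had a log2 change of -0.09. The 2 genes higher in 4 of 4 pairs were the dehydrogenase kinase genes Pdk2 and Pdk3, which did not pass. Their log2 changes were 0.40 (adjusted p = 0.154, limma) and 0.08 (adjusted p = 0.186). Pdk2 was low, with a mean of 57.2 units in vehicle. The more abundant kinase gene Pdk1 (2601 units in vehicle) had a log2 change of 0.04. For the phosphatase gene Pdp2 and the carboxylase gene Pcx it was 0.06 and 0.15. The Pdhb call held in 5 of 12 alternatives and was lost without the pair of any replicate (adjusted p = 0.0776 to 0.214, limma).

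Both called genes of the carnitine list (5 read, median 0.12) rose. Cpt1a, which makes acylcarnitines for entry into mitochondria, went from 774 ± 321 to 1028 ± 411 normalised reads (log2 change 0.41 ± 0.04, adjusted p = 3.72e-04, limma). Slc25a20, the carnitine-acylcarnitine carrier, went from 302 ± 55.8 to 386 ± 66.3 (0.36 ± 0.05, adjusted p = 0.00216). For comparison, 3 of 20 sterol and fatty acid synthesis genes were called (2 higher, 1 lower, median 0.06), 4 of 13 fatty acid oxidation genes (all higher, median 0.10) and 6 of 15 glycolysis genes (all higher, median 0.10), beside 3 of 9 for the acetate and acetyl-CoA genes and 8.64% of all genes. Slc25a20 is in the carnitine and the fatty acid oxidation lists and counts in each. The share over all genes includes many low genes. Kept to a mean above 10 units, the test called 2263 of 13292 genes and 4 of the acetate and acetyl-CoA genes.

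**Figure D3:**
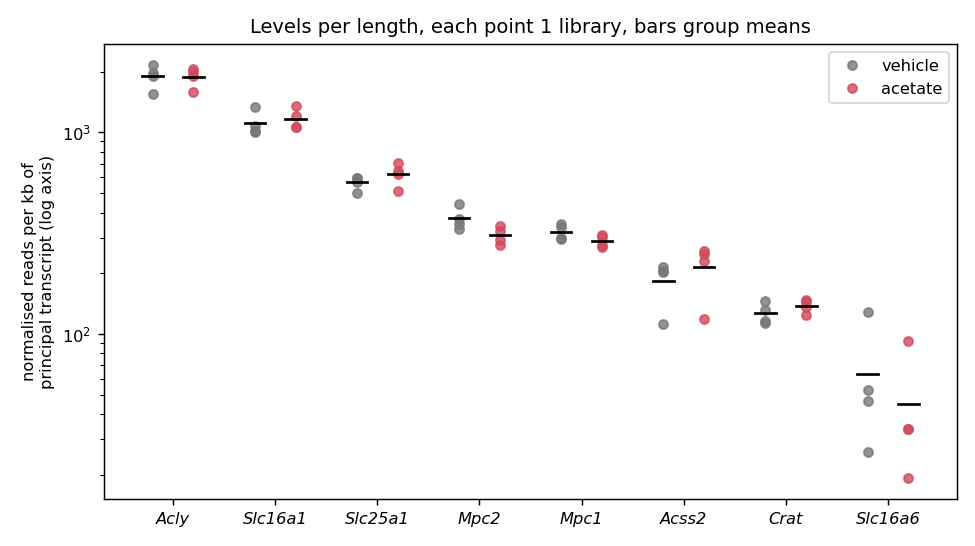
Normalised reads per kb of principal transcript (log axis) of 8 of the 9 genes in the 4 vehicle and 4 acetate libraries, with bars at the group means and Acss1 left out. Acly (mean 1896 in vehicle) and Slc16a1 (1106) stand at the top and Slc16a6 (63.4) at the bottom, where the spread over replicates is widest.

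Levels between genes were compared as normalised reads per kb of the principal transcript. In vehicle the order was Acly (1896 ± 256, SD, n = 4), Slc16a1 (1106 ± 159), Slc25a1 (564 ± 46.1), Mpc2 (375 ± 48.6), Mpc1 (322 ± 27.1), Acss2 (184 ± 47.7), Crat (127 ± 15.1), Slc16a6 (63.4 ± 44.9) and Acss1 (0.160). The order was the same in acetate, with Acly at 1887 ± 212, Acss2 at 214 ± 64.9, Mpc2 at 309 ± 29.5 and Slc16a6 at 44.8 ± 32.4. The ranges of Mpc2 and Mpc1, and of Acss2 and Crat, met in both groups, and those of Crat and Slc16a6 met in vehicle, so the order of these neighbours was within the spread over libraries. Within each library Mpc2 was nonetheless above Mpc1 on this length, in 8 of 8. The other neighbours did not overlap in either group. With the length of all exons of the gene instead, a choice added after the data were seen, Mpc2 came after Mpc1, Crat and Acss2 in both groups, and Slc16a6 (54.8 in vehicle) stood above Acss2 (53.0) and Mpc2 (52.3) in vehicle.

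The replicate number held a larger share of the sum of squares than the treatment in 8 of the 9 genes, the exception being Mpc2. The replicate number has more levels than the treatment, so a larger share is expected for it even without any effect. The shares were not scaled for this, and no such count is given over all genes. The count alone therefore does not show that replicates differed more than treatments. On the log2 scale the replicate number held 91.3% of the sum of squares of Slc16a6 over the 8 libraries and treatment 8.49%, which left 0.256%. For Acss2 the shares were 93.2% and 5.40%, and for Acly 95.1% and 0.0125%. Treatment held 49.3% for Mpc2 and 38.6% for Mpc1, its highest shares.

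**Figure D4:**
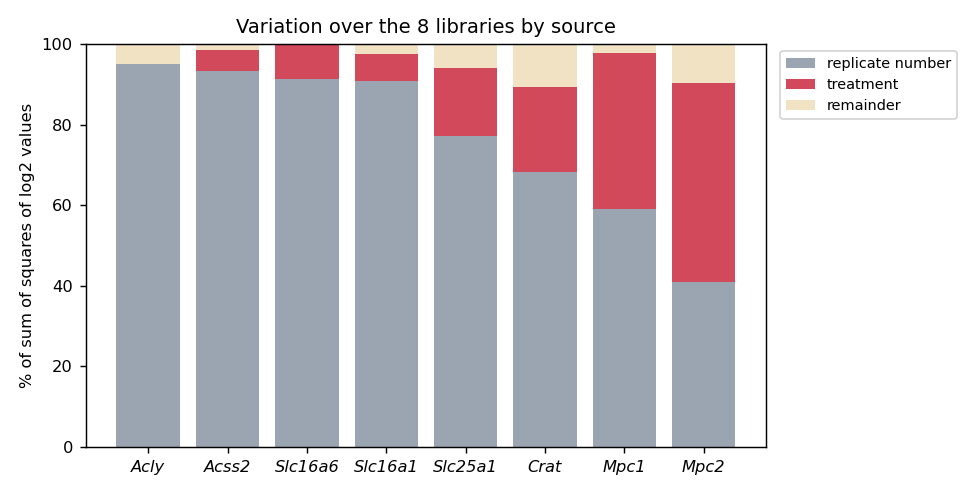
Share of each gene's sum of squares on the log2 scale over 8 libraries (stacked bars, percent) held by the replicate number, by treatment and by the remainder. Treatment holds 49.3% for Mpc2 and 8.49% for Slc16a6, where the replicate number holds 91.3%. The shares are not scaled for the replicate number having more levels than the treatment.

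Genes most like the 3 that changed were sought by Pearson r of log2 values over the 8 libraries, among genes above the median level. These correlations are descriptions over libraries that share replicate numbers. Nearest to Acss2 were Ticam1 (r = 0.999), Zfyve27 (0.997) and Zfp874b (0.996). Nearest to Slc16a6 were Tma16 (0.997), Cldn12 (0.997) and Ppp4r3a (0.996). Of these, Tma16 fell by 0.32 on the log2 scale (adjusted p = 0.00180, limma), and Cldn12 fell by 0.12 (adjusted p = 0.0296). Nearest to Mpc2 were Rpl13 (0.937), Mpc1 (0.929) and Ube2c (0.922), so the partner subunit was the second closest of 10093 genes compared. Among the 9 genes, Acss2 and Slc25a1 varied together over the libraries (r = 0.905), and Acss2 and Slc16a6 varied oppositely (r = -0.907). Replicate 1 was the lowest for Acss2 and Slc25a1 and the highest for Slc16a6 in both groups.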

How the data were processed

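Messenger RNA was measured in 8 libraries of 4T1 cells, 4 with vehicle and 4 with acetate. Libraries were stranded and sequenced as paired ends, as the labels and methods state. Reads were aligned to GRCm38 and counted per gene with STAR (the submitters' processing notes also name HTSeq, and versions are not given in the sources used here). The authors deposited a normalised signal, in which reads were divided by the library total, and kept genes expressed in at least 4 libraries. Each library sums to 20000000. All values were whole multiples of 1 read within 0.02, so reads were recovered, 19.9 to 29.3 M (mega) per library.

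Names and coordinates come from GENCODE M21 (20004 of 20189 genes named), and promoters from RefSeq. The main test was limma 3.58.1 (R 4.3.3, lmFit, eBayes with trend, two-sided) on log2(value + 1) with the replicate number as a block, Benjamini-Hochberg over 20189 genes, threshold 0.05. Fold changes on that scale understate changes of low genes. Same-numbered libraries share a code in the labels, and deviations from group means correlated within pairs at 0.938, 0.662, 0.539 and 0.913 over 13292 genes with a mean above 10 units. Alternatives were no block, pseudocounts of 0.1 and 5, a filter on the mean, median-of-ratios and quantile scaling, edgeR 4.0.16 and DESeq2 1.42.0 on recovered reads, and leaving out each pair. The fits were tested on simulated data. Members and lists were chosen with earlier results of these data known. Named were all members, every called gene of the wider lists, Bsg and Acss3, and the 3 genes most like each called member. Markers, Slc5a8, Amz2, Gss and the genes of the pyruvate list that were not called were named after their values were seen. A carrier gene is left out of the wider lists and is not reported here.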

Additional observations from a re-analysis of the deposited data

Results flagged for a closer look

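Values of 14 genes, the 9 members and the 5 called genes of the wider lists, were examined for single libraries far from the other 3 of their group. In 28 groups of 4 libraries, chance would give about 1.4 such libraries, and 2 were found, both in vehicle replicate 1. Acss2 stood at 329.8 normalised reads there and at 592 to 629 in the other 3 vehicle libraries, a gap of 0.877 of the group's range. Bsg stood at 7818 there and at 10436 to 10866 in the others, a gap of 0.859 of the range. The acetate library of replicate 1 was the lowest of its group for both genes as well, with 347 for Acss2 and 8460.2 for Bsg.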

How the results depend on the processing

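Without the replicate block, limma called 0 of 20189 genes, 0 members and 0 wider genes, with 353 genes at an unadjusted p under 0.05. The count tools were run with the block only, in which DESeq2 called 1126 of 12361 genes and edgeR 2400. Leaving out each pair of libraries in turn gave 409 to 1662 genes, in place of 1744 (1662 without replicate 1, 617 without 2, 409 without 3 and 539 without 4). The members called then numbered 1 to 4, with Slc16a6 alone called without replicate 2, 3 or 4, and the wider genes 3 to 6, in place of 5 (3 without replicate 2 or 4). Slc16a6 passed in 11 of 12 alternatives, at log2 changes of -0.56 to -0.45, and failed only without the block. Mpc2 passed in 8 and Acss2 in 6, and Acss2 also failed at a pseudocount of 0.1 (adjusted p = 0.0503, limma). The log2 change of Acly, -0.00, ran from -0.027 to 0.036 without each replicate in turn. Acss1 had no value under the filter on the mean or an adjusted p in DESeq2. The 3 differences between members kept their sign in the 7 alternatives run for them. Other scalings, filters and tools were not run for the differences. Depth limits Acss1, which had at most 3 reads in a library.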
